A study of Rattus norvegicus with 8 samples.

Results

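Glucocorticoids are the adrenal steroid hormones that act through the glucocorticoid receptor, and the 7 genes described here are the receptor, the enzyme that supplies it with active hormone, a co-chaperone that tunes it and 4 of its widely used response genes. They were taken from the gene table by name: Nr3c1, Hsd11b1, Fkbp5, Tsc22d3, Sgk1, Zbtb16 and Klf9. The 7 names matched 9 of the 19238 rows of the table, because Nr3c1 and Tsc22d3 each have 2 rows, and all 9 rows had enough counts to be tested. Total RNA of rat thoracic aorta was sequenced in 2 groups of 4 libraries. The control group came from the Wistar strain, and the other group, labelled as having diabetic macroangiopathy, from GK (Goto-Kakizaki) rats, an inbred strain derived from Wistar that has inherited diabetes without obesity. All rats were 7 to 8 weeks old, no treatment is named for either group, and the libraries of each group are numbered 7 to 10. Strain and diabetes split the samples in the same way, so they cannot be told apart in any value below. The source field of every sample names the GK rat, controls included, and the groups follow the titles, strain and group fields. The labels do not state whether each library is an animal of its own, so p-values measure only the spread between these samples, which may be technical.

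In the absence of hormone the receptor waits in the cytoplasm, held by the chaperone Hsp90 and its helpers. Hormone binding releases it to the nucleus, where it binds glucocorticoid response elements and switches on genes such as Fkbp5, Tsc22d3 and Per1, while it restrains inflammatory genes. In the vessel wall glucocorticoids act on smooth muscle and endothelium and raise the response to constrictors.

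Of the 9 rows, the Sgk1 row alone passed the test in GK against control, upward, and no row passed it downward (edgeR quasi-likelihood test, Benjamini-Hochberg adjusted p under 0.05 over 13673 genes). That is 11.1% of the member rows, against 7.28% of all genes tested, of which 3.96% were higher and 3.31% lower in GK. Log2 fold changes were above 0 in 5 rows and below 0 in 4, with a median of 0.15 against 0.00 for all genes tested, and 4 rows had an unadjusted p under 0.05. The GK libraries lay wholly above the controls in 2 rows and wholly below them in 1. Over all genes tested these shares were 7.93% and 7.64%. The members therefore did not move in 1 direction: Sgk1 and the second Nr3c1 row lay wholly higher in GK and Klf9 wholly lower, and the other 6 rows overlapped.

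**Figure D1:**
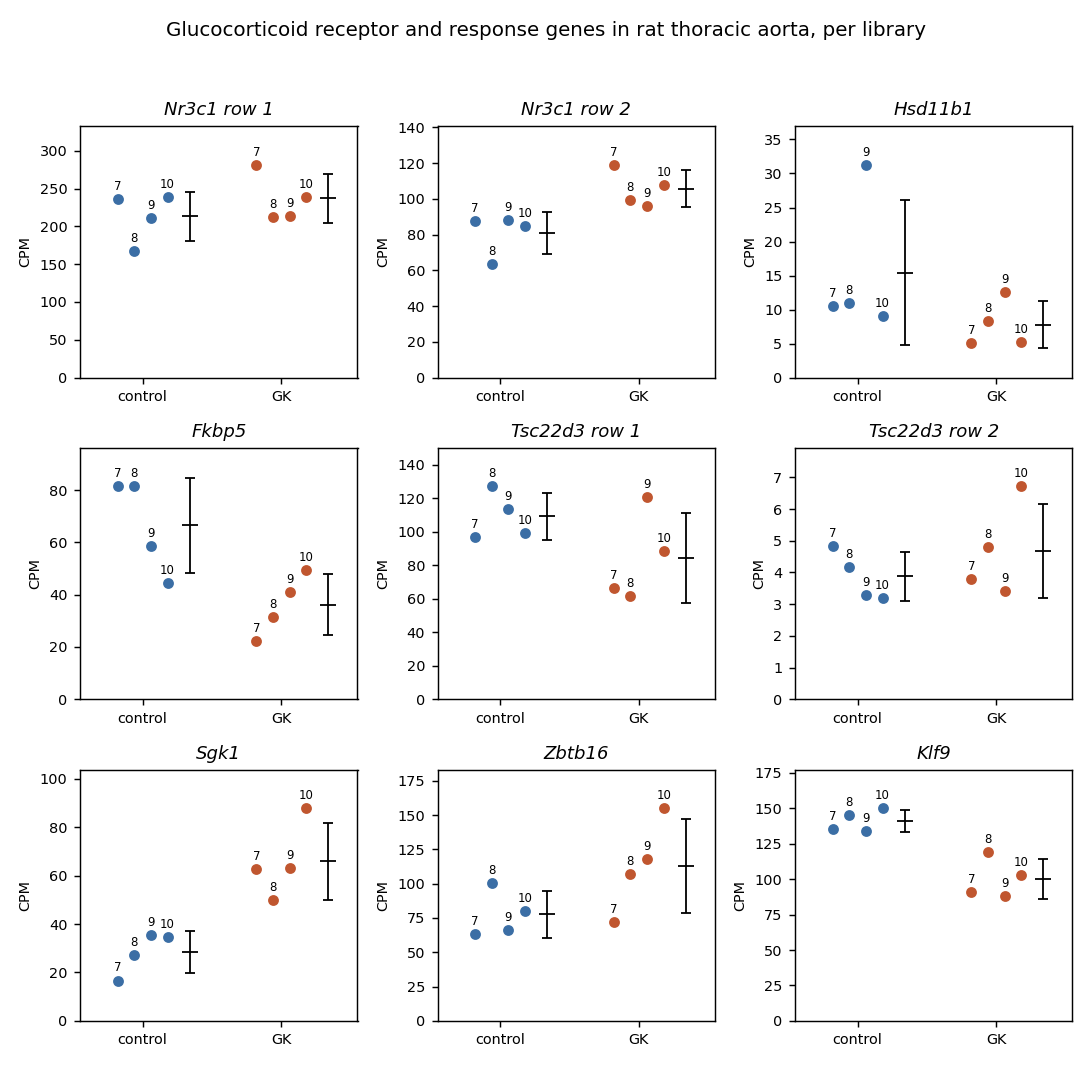
Depth-scaled counts (CPM, y axis of each panel, starting at 0) of the 9 member rows in the 4 control (blue) and 4 GK (orange) libraries, each point labelled with its library number; the black mark is the group mean and its bars 1 SD. Sgk1 and the second Nr3c1 row show GK points above every control, Klf9 shows them below every control, and the other panels overlap.

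The libraries held from 11760397 to 16266151 gene counts, and the member rows had from 45 to 3858 counts in a library. CPM values are depth-scaled counts, over the library total times its TMM factor, which ran from 0.826 to 1.24. With library totals only, the median log2 fold change of all genes moved from 0.00 to -0.16. The tissue carried its defining cells, since the contractile smooth muscle markers summed to 5063 to 13770 CPM in controls and 2874 to 7830 CPM in GK. GK 9 stood apart: its skeletal muscle markers summed to 15531 CPM, against 46.8 CPM or less in the other 7 libraries. It also held the highest nerve and Schwann cell sum, 1372 CPM, with Dbh at 411 and Th at 91.0 CPM, against 5.23 and 2.55 or less elsewhere. Cardiomyocyte markers summed to 546 CPM in control 7, 886 in GK 7 and 1728 in GK 8, against 52.3 to 157 in the other 5 libraries; the values without each of these libraries are among those given below. Control 9 and GK 9 also held the lowest brown adipocyte sums of their groups, 784 and 2161 CPM. Without both libraries numbered 9, 1 member row was called, again Sgk1.

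Some cell type markers differed between the groups as well. The counts below stand against 7.28% of all genes tested, with 3.96% higher and 3.31% lower in GK. Of 11 tested general adipocyte markers 4 passed the test upward and none downward. Their sum was 8136 to 12821 CPM in controls against 12969 to 29874 in GK. This sum leaned on Lpl, at 2875 ± 766 CPM in controls and 10059 ± 4417 in GK (SD, n = 4). Log2 fold changes were above 0 in 9 of the 11, while Lep went the other way (-1.92 ± 0.67, edgeR adjusted p = 0.111). Brown adipocyte markers summed to 784 to 4148 and 2161 to 7077 CPM, with 1 of 7 higher. Endothelial markers summed to 628 to 1000 CPM in controls and 1040 to 1280 in GK, with 4 of 9 passing upward and none downward. Much of this gap was Kdr, at 125 ± 22.9 CPM in controls and 342 ± 94.3 in GK. Log2 fold changes were above 0 in 7 of the 9, and below 0 for Vwf (-0.51 ± 0.48) and Cldn5 (-0.64 ± 0.37). On the other side, 3 of 10 fibroblast markers fell (sums of 3514 to 7301 and 1106 to 3733 CPM). So did 1 of 8 macrophage markers, Lyz2 (list sums of 410 to 953 and 256 to 383 CPM), and 1 of 10 contractile smooth muscle markers. The macrophage marker Cd68 went the other way (0.77 ± 0.32, edgeR adjusted p = 0.164). In the brown adipocyte, macrophage and smooth muscle lists the call was a single gene, 14.3%, 12.5% and 10% of the tested rows. It says little about each list as a whole. Neutrophil markers summed to 24.2 to 158 CPM in controls and 239 to 311 in GK, without overlap, but nearly all of the sum was Mpo (log2 fold change 1.95 ± 0.51, edgeR adjusted p = 0.0546; named, like Dbh and Th, after its values were seen). The other 3 tested neutrophil markers were below 0, the list median was -0.45, and 0 of 4 was called. The skeletal muscle list had 0 of 4 tested markers called. In none of these lists was a measured marker at 0 in every library. In bulk tissue fewer cells of a type and less RNA per cell cannot be told apart, and the part of these shifts in the member results was not tested.

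**Figure D2:**
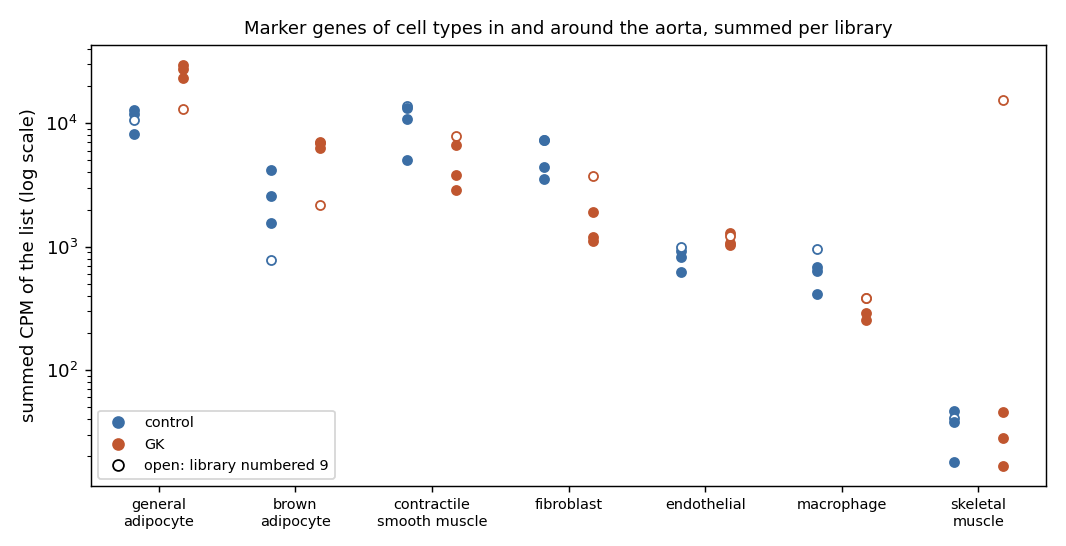
Summed CPM (y axis, log scale) of 7 cell type marker lists (x axis) in each control (blue) and GK (orange) library, with the libraries numbered 9 drawn open. General adipocyte and endothelial sums lie higher in GK and macrophage sums lower. The largest CPM changes in these lists are those of Lpl, Kdr and Lyz2. The skeletal muscle sum is 15531 CPM in GK 9 against 46.8 CPM or less in the other libraries.

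Levels of different genes can be compared only per transcript length. On the FPKM scale, which divides by length and by library total, the second Nr3c1 row had the highest level, at 70.4 ± 17.1 (SD, n = 4) in controls and 80.5 ± 7.96 in GK. That row spans only 1239 bases, and how reads were divided between the Nr3c1 rows is not stated, so its rank is uncertain as a level of the gene. Klf9 and the first Tsc22d3 row followed in controls, each with a level of 59.9 FPKM (SD 6.85 and 9.44), ahead of the first Nr3c1 row at 45.0 ± 9.98. Zbtb16 came next, with a level of 31.0 ± 4.69 FPKM. In the control order each of these rows overlapped its neighbour over the libraries. Below them the levels of Fkbp5, at 20.6 ± 4.31 FPKM, and of the second Tsc22d3 row, at 11.8 ± 1.73, were clear of their neighbours. Sgk1 at 6.31 ± 2.48 and Hsd11b1 at 3.58 ± 2.95 FPKM closed the control order and overlapped each other. In GK the second Nr3c1 row was clear of the rest, and Klf9 moved from rank 2 in controls to rank 5, with a level of 38.0 ± 7.10 FPKM. Between them stood the first Nr3c1 row at 44.0 ± 5.03, the first Tsc22d3 row at 42.7 ± 20.7 and Zbtb16 at 41.1 ± 13.2 FPKM, each overlapping the next. At the low end the Sgk1 level of 12.7 ± 2.70 FPKM stood beside that of the second Tsc22d3 row, at 12.6 ± 2.89, and of Fkbp5, at 10.3 ± 3.79, with overlap from each row to the next. Hsd11b1 again came last, at 1.62 ± 1.02 FPKM. Among all 19238 rows the mean FPKM of Sgk1 ranked at the 58.5th percentile in controls and the 75.8th in GK, and Fkbp5 at the 83.6th and the 71.3rd.

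The promoters of the 3 response genes with the lowest unadjusted p, Sgk1, Klf9 and Fkbp5, are shown as the regulatory sequence of the members that differ most clearly between the groups. The sequences are RefSeq windows of the 250 bases before an annotated start (build GRCr8), read 5′ to 3′ on the strand of the gene, and capitals mark a GC box (GGGCGG) or a TATA box (TATAAA) on either strand. Sgk1 has 3 such starts on the minus strand, at chr1:24807232-24807481, chr1:24805571-24805820 and chr1:24804832-24805081. Klf9 has 1 on the plus strand, at chr1:230126396-230126645, and Fkbp5 has 1 on the minus strand, at chr20:6543556-6543805.
Sgk1 start 1: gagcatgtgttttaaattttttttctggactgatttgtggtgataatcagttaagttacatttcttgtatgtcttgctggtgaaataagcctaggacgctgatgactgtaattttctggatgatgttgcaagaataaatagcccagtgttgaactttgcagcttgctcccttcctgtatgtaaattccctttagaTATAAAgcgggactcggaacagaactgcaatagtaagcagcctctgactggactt
Sgk1 start 2: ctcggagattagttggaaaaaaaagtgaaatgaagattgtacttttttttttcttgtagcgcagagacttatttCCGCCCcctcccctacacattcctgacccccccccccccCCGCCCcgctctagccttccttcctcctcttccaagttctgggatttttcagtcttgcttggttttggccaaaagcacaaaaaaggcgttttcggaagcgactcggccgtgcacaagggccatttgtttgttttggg
Sgk1 start 3: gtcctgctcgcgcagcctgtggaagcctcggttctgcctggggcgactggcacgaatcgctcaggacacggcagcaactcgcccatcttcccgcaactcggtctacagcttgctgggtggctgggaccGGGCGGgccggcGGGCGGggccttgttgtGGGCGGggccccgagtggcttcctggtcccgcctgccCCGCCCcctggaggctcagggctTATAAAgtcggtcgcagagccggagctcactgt
Klf9: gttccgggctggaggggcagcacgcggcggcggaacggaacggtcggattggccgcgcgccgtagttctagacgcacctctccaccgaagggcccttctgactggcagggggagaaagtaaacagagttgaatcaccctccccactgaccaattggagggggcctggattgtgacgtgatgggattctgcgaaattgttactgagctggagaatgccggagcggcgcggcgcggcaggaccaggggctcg
Fkbp5: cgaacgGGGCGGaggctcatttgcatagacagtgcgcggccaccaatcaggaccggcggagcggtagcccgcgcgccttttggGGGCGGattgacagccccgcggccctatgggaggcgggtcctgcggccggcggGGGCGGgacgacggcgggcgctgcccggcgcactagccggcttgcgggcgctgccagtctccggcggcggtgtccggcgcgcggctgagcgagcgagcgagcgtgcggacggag
The Sgk1 starts differ among themselves. The first holds a TATA box, the second 2 GC boxes, and the third 4 GC boxes and a TATA box, while Fkbp5 holds 4 GC boxes, of which 3 lie within the bases shown, and the Klf9 window neither motif. A TATA box occurs in 14.2% and a GC box in 33.1% of all 33469 promoter windows of 300 bases (250 before and 50 after the start).

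Of the 7 members 5 matched the promoter table, with 10 windows in all. None of the 10 contains the consensus glucocorticoid response element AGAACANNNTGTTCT, its relaxed form GNACANNNTGTNC or its single arm TGTTCT on either strand. Over all windows the shares holding them were 0.0149%, 0.439% and 20.7%, and a window with the first holds the other motifs too. The absence of these letters describes these windows and nothing beyond them. The member windows had a median GC content of 65.7% and a median of 27 CpG dinucleotides, against 51.7% and 7 over all windows.

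Nr3c1, the receptor itself, was measured by 2 rows on chromosome 18, and the question is whether the aorta of the diabetic strain holds more or less receptor RNA. The first row (ENSRNOG00000014096, 31728373 to 31749647; the sources used here name no rat build for the table) spans 21275 bases. Its levels in controls were 236, 167, 211 and 238 CPM, while GK 7 to 10 had 282, 213, 214 and 239 CPM. The groups overlapped, with GK 7 highest and control 8 lowest. The log2 fold change was 0.15 ± 0.17 (SE; 95% interval -0.23 to 0.53; edgeR adjusted p = 0.579), and with library totals only it turned to -0.03.

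The second Nr3c1 row (ENSRNOG00000048800, 32669427 to 32670665) lies at a separate locus of 1239 bases. The length implied by its FPKM equals that span. Controls 7 to 10 stood at 87.4, 63.6, 88.3 and 84.8 CPM, against 119, 99.5, 95.9 and 108 CPM in GK. Every GK library was above every control, with control 8 set apart at the bottom. The log2 fold change was 0.38 ± 0.14 (95% interval 0.06 to 0.71), which did not pass the test (unadjusted p = 0.0267, edgeR adjusted p = 0.131). How the authors' counting divided reads between the 2 rows is not stated, so each row is uncertain as a measure of the gene.

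The balance between the rows can be read within a library, where depth cancels. This ratio was chosen after the values were seen. Counts of the second row over the first gave 0.371, 0.380, 0.419 and 0.356 for controls 7 to 10, against 0.423, 0.468, 0.447 and 0.451 for GK. The means were 0.381 ± 0.0268 and 0.447 ± 0.0185 (SD, n = 4), and the groups did not overlap, although control 9 and GK 7 were close. The exact two-sided permutation p was 0.0286, the smallest that 4 against 4 libraries allow. As the ratio was chosen on these same values, this p describes them and is not an independent test. With 1 library fewer the smallest p possible is 0.0571, so no call can be made there, and the difference then ranged from 0.0576 to 0.0785. The same ratio for the rows of Tsc22d3 was 0.0360 ± 0.00952 in controls and 0.0598 ± 0.0229 in GK, with overlap through GK 9 (exact permutation p = 0.143).

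**Figure D3:**
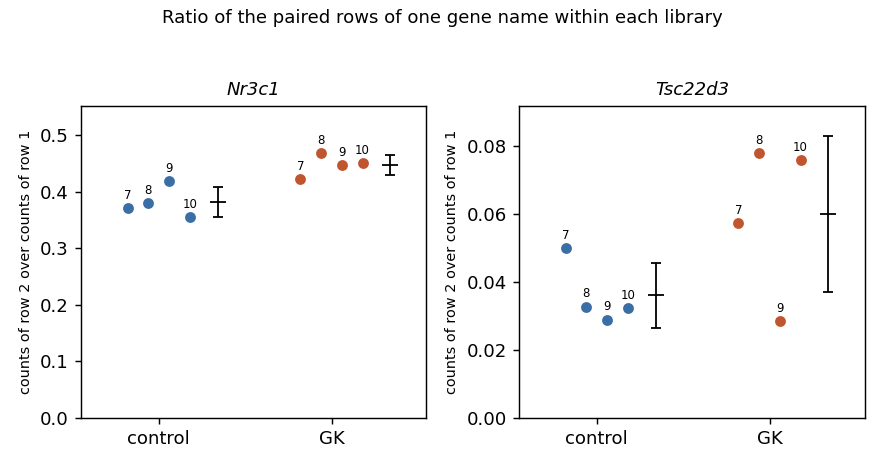
Counts of row 2 divided by counts of row 1 (y axis, starting at 0) for Nr3c1 (left) and Tsc22d3 (right) in each control (blue) and GK (orange) library, numbered, with the group mean and 1 SD in black. The Nr3c1 ratios of the GK libraries lie from 0.423 to 0.468, above the highest control at 0.419, and the Tsc22d3 ratios overlap.

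Hsd11b1 encodes the enzyme that regenerates active corticosterone, the main glucocorticoid of the rat, from its inactive keto form inside cells (ENSRNOG00000005861, chromosome 13, 111926442 to 111972603). It stood at 10.6, 10.9, 31.3 and 9.01 CPM in controls 7 to 10 and at 5.11, 8.31, 12.6 and 5.21 CPM in GK 7 to 10. Control 9 was far above the other controls, GK 9 was the highest of its group, and the groups overlapped through GK 9. GK over control gave a log2 fold change of -0.98 ± 0.47 (95% interval -2.06 to 0.09; edgeR adjusted p = 0.214). Without control 9 it was -0.38 (adjusted p = 0.534), and with both libraries numbered 9 left out -0.71 (adjusted p = 0.0784). With the replicate number as a block the value was -0.89 and passed the test (adjusted p = 0.0293).

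Fkbp5 encodes the co-chaperone that sits on the Hsp90 complex and lowers the hormone affinity of the receptor, and it is itself induced by the receptor (ENSRNOG00000022523, chromosome 20, 7976713 to 8019020). Controls 7 to 10 held 81.5, 81.5, 58.5 and 44.6 CPM and GK 7 to 10 held 22.3, 31.6, 41.2 and 49.5 CPM. GK 10 was above control 10, and otherwise every GK library was below every control. Its log2 fold change of -0.88 ± 0.28 (95% interval -1.52 to -0.24) corresponds to a ratio of 0.544 and did not pass the test (unadjusted p = 0.013, edgeR adjusted p = 0.0906). It passed by DESeq2, where the log2 fold change was -0.86 and the adjusted p 0.0420. In the authors' deposited table its log2 fold change is -1.004 with a q-value of 0.0809.

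Tsc22d3 encodes GILZ, the glucocorticoid-induced leucine zipper protein, a mediator of the anti-inflammatory action of the hormone. Its first row (ENSRNOG00000056135, chromosome X, 111884295 to 111887906) had 96.8, 127, 114 and 99.0 CPM in controls 7 to 10 and 66.3, 61.8, 121 and 88.6 CPM in GK 7 to 10. GK 9 was the second highest of all libraries, while GK 7, 8 and 10 lay below every control. This gave a log2 fold change of -0.37 ± 0.22 (edgeR adjusted p = 0.311). Without GK 9 it was -0.58 and passed the test (adjusted p = 0.0482), and without both libraries numbered 9 it was -0.58 with an adjusted p of 0.0716. The second row (ENSRNOG00000060899, 111942102 to 111942749, on the same chromosome) was low, at 3.21 to 4.84 CPM in controls and 3.42 to 6.72 CPM in GK, with overlap and a log2 fold change of 0.27 ± 0.28 (edgeR adjusted p = 0.546).

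Sgk1, the serum- and glucocorticoid-regulated kinase, which promotes sodium channel and transporter activity and also responds to mineralocorticoids, was the member that rose (ENSRNOG00000011815, chromosome 1, 24185435 to 24302298). Controls 7 to 10 held 16.7, 27.4, 35.4 and 34.7 CPM and GK 7 to 10 held 62.8, 49.8, 63.0 and 88.0 CPM. All 4 GK libraries were above all 4 controls, with GK 10 highest and control 7 lowest. The means were 28.5 ± 8.70 and 65.9 ± 15.9 CPM (SD, n = 4). The log2 fold change was 1.21 ± 0.26 (95% interval 0.61 to 1.81), a ratio of 2.31 (edgeR adjusted p = 0.0340). The call did not survive the loss of control 8, control 10, GK 7, GK 8 or GK 10, where the adjusted p rose to between 0.0699 and 0.0908 and the log2 fold change stayed between 1.04 and 1.32. With library totals only the value was 1.004 (adjusted p = 0.0981). In the authors' deposited table the gene is called up, with a log2 fold change of 1.004 and a q-value of 0.00407, and no other member is called there.

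Zbtb16 encodes PLZF, a zinc finger transcription factor induced by glucocorticoids in several human tissues (ENSRNOG00000029980, chromosome 8, 52985313 to 53146953). Controls 7 to 10 stood at 63.4, 100.4, 66.2 and 80.1 CPM, against 72.1, 107, 118 and 155 CPM in GK 7 to 10. GK 8, 9 and 10 were above every control and GK 7 was within the control range. The log2 fold change was 0.54 ± 0.25 (95% interval -0.02 to 1.10; edgeR adjusted p = 0.192).

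Klf9, a Krüppel-like transcription factor that is an early target of the receptor, had control values within 134 to 150.4 CPM (ENSRNOG00000014215, chromosome 1, 240908483 to 240933198). In order they were 136, 145, 134 and 150.4 CPM for controls 7 to 10, against 91.1, 119, 88.0 and 103 CPM in GK 7 to 10. Every GK library was below every control. Its log2 fold change was -0.49 ± 0.13 (95% interval -0.80 to -0.19), a ratio of 0.710, and missed the threshold (unadjusted p = 0.00523, edgeR adjusted p = 0.0590). It passed by DESeq2 (-0.47, adjusted p = 0.00659) and with the replicate number as a block (-0.50, adjusted p = 0.0320). The authors' deposited table gives it a log2 fold change of -0.66 and a q-value of 0.348.

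**Figure D4:**
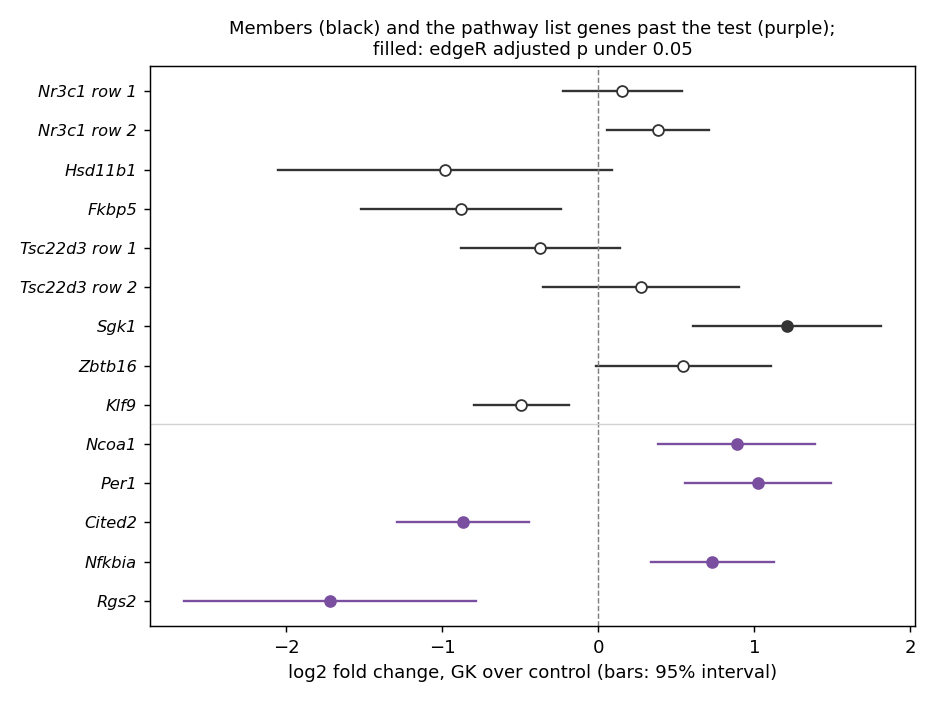
Log2 fold changes of GK over control (x axis, points) with 95% intervals (bars) for the 9 member rows in black and the 5 called genes of the receptor machinery and induced target lists in purple; filled points passed the edgeR test. Among members the Sgk1 point alone is filled, at 1.21, and the Fkbp5 and Klf9 intervals lie below 0 without passing.

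Genes that work with the receptor were read from a list of 20 names: chaperones, co-activators, co-repressors, the mineralocorticoid receptor and enzymes and carriers of the hormone. Of 17 tested rows 1 rose and none fell (5.88%, against 7.28% of all genes tested), and the list median was 0.16. Ncoa1, the first described steroid receptor co-activator, stood at 154, 144, 113 and 125 CPM in controls 7 to 10 and 322, 244, 159.6 and 266 CPM in GK 7 to 10. All GK libraries were higher, GK 9 least so. Its log2 fold change was 0.89 ± 0.22 (edgeR adjusted p = 0.0486), and the call held without GK 9 (adjusted p = 0.00736) but not without any other single library, where the log2 fold change was 0.73 to 0.97. The GK libraries lay wholly above the controls in 2 of the 17 rows and wholly below in 1, against 7.93% and 7.64% of all genes tested. Besides Ncoa1 these were Hspa8 and Ncor1, named after their values were seen, and neither passed the test. Hspa8, a constitutive chaperone of the Hsp70 family, had a log2 fold change of 0.52 ± 0.27 (edgeR adjusted p = 0.244). Its level was 2.28 ± 0.584 CPM in controls, in a row that near-identical copies could share. For Ncor1, a nuclear receptor co-repressor, the log2 fold change was -0.33 ± 0.14 (edgeR adjusted p = 0.177). Nr3c2, the mineralocorticoid receptor, was at 34.6 ± 6.95 CPM in controls and 28.2 ± 5.33 in GK (log2 fold change -0.30 ± 0.19, edgeR adjusted p = 0.335). Hsd11b2, which inactivates the hormone, was too low to be tested, at 0.432 and 0.634 CPM, and so was Serpina6, the carrier of corticosteroids in blood.

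Targets that the receptor is known to induce, listed as 37 names, showed no common direction. Of 37 tested rows 2 rose and 2 fell (10.8% called, against 7.28% of all genes tested), 20 log2 fold changes were above 0, and the median was 0.19. In 13 rows the unadjusted p was under 0.05. The groups did not overlap in 6 rows, with 3 above and 3 below, against 7.93% and 7.64% of all genes tested.

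Per1, a repressor of the circadian clock with a direct receptor site in its promoter, rose. It stood at 44.2, 66.4, 54.6 and 48.7 CPM in controls 7 to 10 and 89.8, 92.7, 149.9 and 102 CPM in GK 7 to 10, with GK 9 highest. Its log2 fold change was 1.02 ± 0.20 (edgeR adjusted p = 0.0268). Nfkbia, the inhibitor that holds NF-kappa-B in the cytoplasm, rose as well. It held 57.8, 89.7, 69.7 and 71.9 CPM in controls and 95.3, 122, 122 and 139 CPM in GK, without overlap (0.73 ± 0.17, edgeR adjusted p = 0.0423).

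Rgs2, which shortens signalling of vasoconstrictor receptors in smooth muscle, fell. It held 292, 224, 76.1 and 151 CPM in controls 7 to 10 and 70.0, 45.3, 37.1 and 73.6 CPM in GK 7 to 10, with control 9 just above GK 10. Its log2 fold change was -1.72 ± 0.41 (edgeR adjusted p = 0.0438). Cited2, a transcriptional co-regulator, fell from 44.0, 40.1, 54.3 and 40.3 CPM in controls to 18.5, 23.1, 32.0 and 24.2 CPM in GK, without overlap (-0.87 ± 0.19, edgeR adjusted p = 0.0320). The other rows without overlap, Trim63, a muscle ubiquitin ligase, and Crispld2, a secreted protein, were named after their values were seen and did not pass. Trim63 had a log2 fold change of 1.91 ± 0.57 (edgeR adjusted p = 0.0761), with 23.7 CPM in GK 9 against 6.79 or less elsewhere. For Crispld2 the log2 fold change was -1.66 ± 0.43 (edgeR adjusted p = 0.0515).

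The calls depended on single libraries, while the fold changes kept their direction. Without GK 9 all 4 held, without control 8 Per1 and Nfkbia did, without control 9 Rgs2 did, and leaving out any of the other libraries ended each of them. Over all 8 such fits the log2 fold change ran from 0.84 to 1.14 for Per1, from 0.65 to 0.85 for Nfkbia, from -1.98 to -1.41 for Rgs2 and from -1.01 to -0.76 for Cited2. Calls over all genes fell to as few as 135 in these fits. Without both libraries numbered 9 Nfkbia lost its call (edgeR adjusted p = 0.0562), and the list had 8 calls, 1 of them higher. With library totals only it had 1, which was lower.

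Inflammatory genes that the receptor is known to restrain were on a list of 13 names. Of 9 tested rows none passed the edgeR test, 1 had an unadjusted p under 0.05, DESeq2 called 0, and the median was -0.21. The most abundant were Ptgs2, the inducible cyclooxygenase, and Vcam1, an endothelial adhesion molecule. Ptgs2 stood at 10.9, 10.8, 64.5 and 48.7 CPM in controls 7 to 10 and 8.98, 20.7, 84.4 and 154 CPM in GK 7 to 10, a spread within each group that exceeded the difference between them (0.99 ± 0.91, edgeR adjusted p = 0.504). Vcam1 held 24.4, 21.8, 59.5 and 65.9 CPM in controls and 26.8, 24.0, 24.9 and 18.0 CPM in GK, where the 2 high values are controls 9 and 10 (-0.87 ± 0.37, edgeR adjusted p = 0.168). Il6, Csf2 and Mmp9 were too low to be tested.

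**Figure D5:**
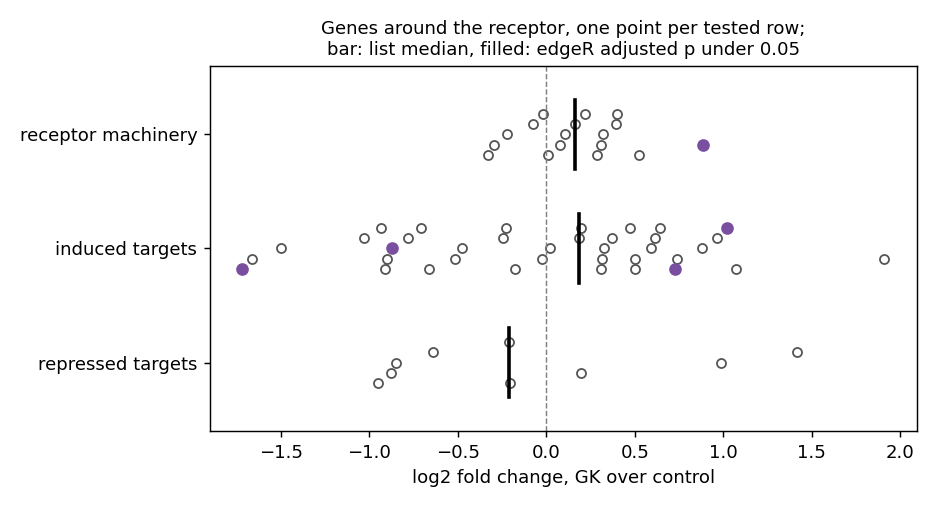
Log2 fold change of GK over control (x axis) for each tested row of the receptor machinery, induced target and repressed target lists (y axis), 1 point per row, with the list median as a bar and called genes filled. The medians lie at 0.16, 0.19 and -0.21, close to the 0.00 of all genes, and the called genes sit on both sides of 0.

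A broader list comes from the annotation deposited with the table, whose term for response to glucocorticoid covers 170 rows and includes the members Nr3c1, Sgk1 and Klf9. It was added after values were seen. Of 137 tested rows 4 rose and 10 fell (10.2%, against 7.28% of all genes tested), with a median of -0.05. The GK libraries lay above the controls in 7 rows and below them in 18, against 7.93% and 7.64% of all genes tested. The risers were Sgk1, the ketone body enzyme Bdh1 (3.69 ± 0.82), the aryl hydrocarbon receptor Ahr (0.84 ± 0.15) and the Polycomb gene Bmi1 (0.72 ± 0.18). Among those that fell were matrix and immune genes: Eln, the gene of elastin (-3.71 ± 0.57), Sparc, a collagen-binding protein (-2.22 ± 0.35), complement C3 (-4.36 ± 0.73), and RT1-Ba and RT1-Bb, class II genes of the major histocompatibility complex (-4.12 ± 0.60 and -2.29 ± 0.39). The others that fell were the water channel Aqp1 (-1.50 ± 0.24), Bmp4 (-1.55 ± 0.36), the phospholipase Pla2g4a (-1.19 ± 0.28), the arginase Arg1 (-1.99 ± 0.34) and the transcription factor Tfap4 (-0.93 ± 0.21). Macrophage marker sums were lower in every GK library, but this gap leaned on Lyz2, at 349 ± 118 CPM in controls and 128 ± 22.2 in GK. It was the only 1 of the 8 macrophage markers whose groups did not overlap, and Cd68 was higher in GK (27.0 ± 4.43 and 46.0 ± 18.1 CPM). Fibroblast sums were lower too, except that GK 9 (3733 CPM) was above control 8 (3514 CPM). The part of these shifts in the list was not tested. With library totals only the list had 7 calls, 0 of them higher, and without both libraries numbered 9 it had 41, 12 of them higher. It had 2 calls without control 10 or GK 7, 4 without GK 8, 8 without GK 10 and 42 without GK 9. In these fits calls over all genes moved the same way from 995, so these swings were not confined to this list. In the library order just given they numbered 135, 187, 180, 294 and 3046. Scaling by library totals gave 473 over all genes, and dropping both libraries numbered 9 gave 2534. Without control 7, control 8 or control 9 the list changed less, with 15, 10 and 11 calls, while all genes had 567, 591 and 520. The authors' deposited table of enriched terms gives response to glucocorticoid 21 differential genes of 199 annotated, 8 up and 13 down, with a q-value of 0.0217. It gives cellular response to glucocorticoid stimulus 9 of 69, with a q-value of 0.0681. The term response to corticosteroid has 24 of 210 there, 8 up and 16 down, with a q-value of 0.00636. The authors' calls and annotated set, 199 genes against 170 rows here, are not those used above, so the counts cannot be compared directly. The share of all genes that the authors called is not given here.

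The table of long non-coding RNA held 7 transcripts that lie on the Sgk1, Zbtb16 or Klf9 loci, of which 6 were tested and none passed, against 2.74% of all transcripts tested. Strand is not stated for the counting, so their reads cannot be told apart from those of the genes they overlap. The Sgk1 transcript NONRATT002014.2 (chromosome 1, 24185451 to 24187195) lies within the gene's span. Its values, in CPM of that table, came to 2.67, 9.13, 30.2 and 50.7 for controls 7 to 10, against 61.7, 62.1, 58.5 and 47.2 for GK. Controls spread widely and control 10 was within the GK range (log2 fold change 1.29 ± 0.68, edgeR adjusted p = 0.365). Of the 3 Klf9 transcripts the most abundant, NONRATT001612.2, had a log2 fold change of -0.43 ± 0.19, and NONRATT001610.2, whose groups did not overlap, one of -0.36 ± 0.18 (edgeR adjusted p of 0.284 and 0.336). The Zbtb16 transcript NONRATT028523.2 had the lowest unadjusted p of the 6, with 1.07, 6.64, 7.01 and 0.483 CPM in controls and 10.3, 18.3, 29.5 and 3.32 CPM in GK, where GK 10 was within the control range (log2 fold change 2.08 ± 0.82, unadjusted p = 0.0327, edgeR adjusted p = 0.233). Its neighbour NONRATT028522.2 had a log2 fold change of 0.97 ± 0.52 (edgeR adjusted p = 0.369).

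The genes whose log2 CPM followed each member most closely over the 8 libraries were found among 12211 genes, and these correlations are descriptions over libraries that share the group difference and the libraries' composition. Sgk1 was closest to Dusp6 (Pearson r = 0.966), a phosphatase of the ERK kinases, and to Atxn7l3 (0.962). For Klf9 they were Elk4 (0.970) and Zfp511 (0.951), and for Fkbp5 a row named AABR07021734.2 (0.977) and Myc (0.963). Hsd11b1 was closest to Lypd6 (0.952) and to Lep (0.951), the gene of the fat hormone leptin. Control 9 stood far above the rest for both Hsd11b1 and Lep, at 31.3 and 237 CPM, against 12.6 and 63.8 CPM or less in the other libraries. The correlation without that library was not tested. Zbtb16 was closest to Pitpnm1 (0.949) and Med9 (0.934). The first row of Nr3c1 followed Ctcf (0.988) and Tra2a (0.959), and the second Dnajc13 (0.991) and N4bp1 (0.983). The first row of Tsc22d3 followed Kctd11 (0.979) and Tomm34 (0.976), and the second P2ry1 (0.954) and Mrp63 (0.946).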

How the data were processed

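RNA-seq covered 8 thoracic aorta libraries, 4 control and 4 GK, grouped by title, strain and group field. The authors deposited raw read counts per gene and per lncRNA transcript, per the file headers, and FPKM values per library in the same tables. The log2 fold changes, p-values and q-values in the authors' deposited table come from edgeR per the file names, with no version given. The numbers of genes per term are another deposited quantity of the authors' enrichment table. Bowtie 0.12.2 and mouse genome builds, without a stated role, are named per the submitters' processing notes, and no rat build is.

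From the counts, genes were filtered with filterByExpr, scaled by TMM and tested with edgeR 4.0.16 in R 4.3.3 (glmQLFit, glmQLFTest, group as the only term, all 8 libraries, Benjamini-Hochberg adjusted over all 13673 genes, threshold 0.05), after the procedure was tested on simulated data. The SE was taken as log2 fold change divided by the root of F. The lncRNA table was tested alike with its own totals. FPKM was used for levels only. DESeq2 1.42.0, other scalings, no filter on low counts, a replicate block and left-out libraries were the alternatives. Library totals limit precision for the low rows, such as the second Tsc22d3 row.

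The members and the lists were chosen with earlier results of these data known. Named genes are the members, each called gene of the receptor machinery and target lists, or the 2 with the highest mean CPM of a list with none, and the 2 genes most correlated with each member (mean log2 CPM of at least 1, prior count 2). Marker lists for adrenal cortex, mesothelial, nerve and Schwann cell, erythroid, cardiomyocyte, mast cell, neutrophil, B cell and T cell genes had 0 called. The list names Hsp90aa1, Tat, Nos2, Pnpla2, Elovl3, Pecam1, Myh2, Hba-a2 and Cyp11b1 were not analysed here. Mt1 and Tnf have 2 rows each. Promoter sequences came from RefSeq (GRCr8), with Python 3.11.15.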

Additional observations from a re-analysis of the deposited data

Results flagged for a closer look

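In 28 groups of 4 libraries checked (the CPM of the 9 member rows and the 5 called pathway genes in each group), 2 had a library far from the other 3, and chance alone gives about 1 in 20. The second Nr3c1 row was at 63.6 CPM in control 8, below the other controls. Hsd11b1 was at 31.3 CPM in control 9, above the other controls.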

How the results depend on the processing

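The number of members called was 1, and 1 with RLE factors, without a filter on low counts and without both libraries numbered 9. It was 0 with library totals only, 3 by DESeq2 and 3 with a replicate block, and 0 to 2 with 1 library left out. With library totals only Nr3c1 row 1 reversed to -0.033 and Sgk1 lost its call at 1.004. DESeq2 called Fkbp5 (-0.86) and Klf9 (-0.47), and the replicate block called Hsd11b1 (-0.89) and Klf9 (-0.50). The receptor machinery had 1 call, 0 with library totals only, 0 without a filter, 2 by DESeq2 and 0 to 3 with 1 library left out. The induced targets had 4, against 1 with library totals only, 2 without a filter, 7 by DESeq2, 10 with the replicate block, 8 without both libraries numbered 9 and 0 to 9 with 1 left out. The repressed targets had 0, against 1 with the replicate block, 1 without both libraries numbered 9 and 0 to 1 with 1 left out. The annotated response list had 14, against 7 with library totals only, 35 by DESeq2, 33 with the replicate block, 41 without both libraries numbered 9 and 2 to 42 with 1 left out. Over all genes 995 were called, 473 with library totals only, 654 without a filter, 2419 by DESeq2, 2372 with the replicate block, 2534 without both libraries numbered 9 and 135 to 3046 with 1 left out; the cause was not tested. With 1 library left out the log2 fold changes ran from 0.05 to 0.22 and from 0.28 to 0.44 for the Nr3c1 rows, from -1.30 to -0.38 for Hsd11b1, from -1.07 to -0.71 for Fkbp5, from -0.58 to -0.25 and from 0.05 to 0.41 for the Tsc22d3 rows, from 1.03 to 1.34 for Sgk1, from 0.35 to 0.71 for Zbtb16 and from -0.59 to -0.42 for Klf9. The library numbers were not taken as pairs. Deviations of same-numbered libraries from their group means correlated over genes at 0.417, 0.0679, 0.545 and 0.0248 for numbers 7 to 10. Those of libraries with unlike numbers ran from -0.393 (control 9 with GK 7) to 0.409 (control 8 with GK 10).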
